A study of Mus musculus with 9 samples.

Results

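The 7 genes described here serve cholesterol synthesis and its control: Srebf2, Hmgcs1, Idi1, Fdps, Sqle, Cyp51 and Insig1. They were taken by gene symbol from a table of expression in mouse liver, as 7 of the 16857 genes it holds, and each was found once. All the mice had been injected with acetaminophen (APAP), which injures the liver in overdose, and were then given leonurine (Leo, a plant alkaloid, SCM-198 in the title of the series) or saline. The study asked what leonurine does to this injury through AdipoR2, an adiponectin receptor. The 9 libraries, made from total liver RNA, fell into 4 groups: 3 from wild-type mice given saline, 2 from wild-type mice given leonurine, 2 from Adipor2 knockout mice given saline and 2 from Adipor2 knockout mice given leonurine. No group without APAP was analysed here. The sources used here gave neither the doses, nor the interval between injections, nor the age of the mice, nor the part of Adipor2 that was deleted. Nothing in the labels states whether libraries within a group are from different animals, so the p-values measure only the spread between these libraries.

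Cells make cholesterol from acetyl-CoA through the mevalonate pathway, and the liver is a major site of this synthesis. SREBP2, the protein encoded by Srebf2, is held in the endoplasmic reticulum with its escort SCAP. When sterols are low the complex moves to the Golgi, where proteases free the part of SREBP2 that enters the nucleus and raises transcription of the synthesis enzymes and of Srebf2 itself. INSIG1, encoded by Insig1, retains the complex in the endoplasmic reticulum when sterols are high. Insig1 is itself a target gene of SREBPs.

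In GRCm38, the build that the submitters name as mm10, the GENCODE M21 annotation places the members on 4 chromosomes, each as a protein-coding gene. Srebf2 lies at chr15:82147181-82205379 and Sqle at chr15:59315077-59331192, both on the plus strand. Hmgcs1 lies at chr13:119690379-119708260 and Idi1 at chr13:8885501-8892451, also on the plus strand. Insig1 lies at chr5:28071363-28078662 on the plus strand, Cyp51 at chr5:4081145-4104746 on the minus strand and Fdps at chr3:89093588-89101959 on the minus strand. Fdps shares 7512 bases with Gm43738 on its own strand, and Hmgcs1 shares 6190 bases with the antisense gene Gm48342. The sources used here say neither how fragments in such overlaps were assigned nor whether strand was used, so these values may hold fragments of the overlapping genes.

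Promoters of 5 members were found in the RefSeq table for GRCm38.p6 (250 bases before to 50 after a start): those of Srebf2, Hmgcs1, Idi1, Cyp51 and Insig1. SREBPs bind sterol regulatory elements, often beside a CCAAT box bound by NF-Y. The stretches below are shown because they belong to the regulator, to the first enzyme among the members and to the feedback inhibitor, and capitals mark TCACCCCA and CCAAT, the latter as ATTGG where it lies on the opposite strand. Each is on the plus strand, reads 5′ to 3′ and ends before the start of the gene in both annotations. Srebf2 is chr15:82147019-82147180, Hmgcs1 is chr13:119690101-119690350 and Insig1 is chr5:28071162-28071362.
Srebf2: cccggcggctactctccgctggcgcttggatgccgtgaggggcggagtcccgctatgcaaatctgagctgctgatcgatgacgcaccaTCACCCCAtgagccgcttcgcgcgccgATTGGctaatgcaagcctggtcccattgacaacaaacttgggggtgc
Hmgcs1: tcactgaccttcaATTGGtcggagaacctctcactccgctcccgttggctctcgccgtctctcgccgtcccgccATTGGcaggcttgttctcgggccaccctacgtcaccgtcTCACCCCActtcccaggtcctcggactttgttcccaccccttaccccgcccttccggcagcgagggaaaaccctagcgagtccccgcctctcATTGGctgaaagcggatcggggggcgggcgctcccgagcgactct
Insig1: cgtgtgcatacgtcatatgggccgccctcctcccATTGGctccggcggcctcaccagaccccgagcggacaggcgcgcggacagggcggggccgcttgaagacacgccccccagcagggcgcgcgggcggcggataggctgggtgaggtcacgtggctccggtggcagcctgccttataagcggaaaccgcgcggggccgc
TCACNCCAC, searched on both strands of the whole window, was in 1 of the 5 promoters, that of Hmgcs1, and in 1.24% of 32851 promoters. TCACCCCA, chosen after the promoters were seen and overlapping the former in Hmgcs1, was in 2 of the 5, Srebf2 and Hmgcs1, and in 1.56% of all. CCAAT, also chosen after the promoters were seen, was in 5 of the 5 and in 37.4% of all. These matches describe letters in a window and were not tested as binding sites.

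The libraries held between 35316653 and 38996734 fragments assigned to genes. Every member had at least 757 fragments in every library, where counting alone gives an error of 3.64%. Adipor2, the targeted gene, had between 126 and 141 FPKM (fragments scaled to gene length and to the library total) in wild type given saline. It had 78.5 and 88.2 FPKM in wild type given leonurine, 70.1 and 76.0 in the knockout given saline and 75.7 and 85.0 in the knockout given leonurine. The genotypes overlapped under leonurine and the knockout kept Adipor2 fragments, so its libraries are called the labelled knockout from here on. The summed fragments of 4 Y-linked genes were 0 and 2 in the labelled knockout given leonurine and between 4154 and 5275 in each of the other 7 libraries. Sex and leonurine cannot be told apart in the labelled knockout, nor can sex and genotype under leonurine. Hepatocyte markers were high throughout, their summed level lying between 34859 and 83235 FPKM. In whole liver, fewer cells of a type and less RNA per cell cannot be told apart.

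Srebf2, the regulator, had the narrowest range of the 7 genes, its highest level being 1.69 times its lowest. Its level was 9.30, 10.2 and 9.93 FPKM in wild type given saline, and 13.98 and 11.6 FPKM in wild type given leonurine. It was 8.27 and 10.1 FPKM in the labelled knockout given saline, and 11.2 and 13.98 FPKM in the labelled knockout given leonurine. All 4 leonurine libraries lay above all 5 saline libraries, and the genotypes overlapped within each injection. How many of all genes separated in this way was not computed. Within a genotype, leonurine lay above saline without overlap for 12.8% of genes tested in wild type and 8.61% in the labelled knockout.

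Hmgcs1 encodes cytosolic HMG-CoA synthase, an early enzyme of the mevalonate pathway. Its level was 40.1, 60.9 and 51.7 FPKM in wild type given saline, and 44.0 and 95.9 FPKM in wild type given leonurine. It was 27.0 and 38.0 FPKM in the labelled knockout given saline, and 89.1 and 73.3 FPKM in the labelled knockout given leonurine. The labelled knockout given saline was lowest without overlap. How many of all genes had such an order of the groups was not computed, here or for the genes that follow. The wild-type leonurine libraries fell on either side of the labelled knockout given leonurine.

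Idi1 encodes isopentenyl diphosphate isomerase, which interconverts the pathway's isoprene units. Its level was 8.52, 15.0 and 15.8 FPKM in wild type given saline, and 8.21 and 20.9 FPKM in wild type given leonurine. It was 7.90 and 7.26 FPKM in the labelled knockout given saline, and 16.5 and 14.6 FPKM in the labelled knockout given leonurine. The labelled knockout given saline was again lowest without overlap, and the other 3 groups overlapped as neighbours in the order of their means.

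Fdps encodes farnesyl diphosphate synthase, which joins those units. Its level was 71.1, 85.3 and 64.7 FPKM in wild type given saline, and 45.7 and 104 FPKM in wild type given leonurine. It was 38.2 and 89.9 FPKM in the labelled knockout given saline, and 204 and 124 FPKM in the labelled knockout given leonurine. The labelled knockout given leonurine was highest without overlap, and the other 3 groups overlapped.

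Sqle encodes squalene monooxygenase, a rate-limiting step after squalene. Its level was 24.5, 31.0 and 24.5 FPKM in wild type given saline, and 31.8 and 61.4 FPKM in wild type given leonurine. It was 10.7 and 23.6 FPKM in the labelled knockout given saline, and 41.5 and 33.9 FPKM in the labelled knockout given leonurine. As for Srebf2, all 4 leonurine libraries lay above all 5 saline libraries, a pattern whose share over all genes was not computed. The leonurine groups overlapped each other.

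Cyp51 encodes lanosterol demethylase. Its level was 25.5, 38.2 and 34.6 FPKM in wild type given saline, and 21.1 and 45.6 FPKM in wild type given leonurine. It was 15.7 and 21.5 FPKM in the labelled knockout given saline, and 44.8 and 32.2 FPKM in the labelled knockout given leonurine. The labelled knockout given saline overlapped neither wild type given saline nor the labelled knockout given leonurine.

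Insig1, the feedback inhibitor, was ordered differently. Its level was 65.0, 118 and 77.3 FPKM in wild type given saline, and 24.3 and 37.1 FPKM in wild type given leonurine. It was 47.2 and 103 FPKM in the labelled knockout given saline, and 130.3 and 119.7 FPKM in the labelled knockout given leonurine. Wild type given leonurine was lowest and the labelled knockout given leonurine highest, both without overlap, and the saline groups overlapped. Ranges without overlap were common among all genes tested. With leonurine 34.2% lay lower in wild type and 8.61% higher in the labelled knockout. Under leonurine 25.6% lay higher in the labelled knockout than in wild type.

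**Figure D1:**
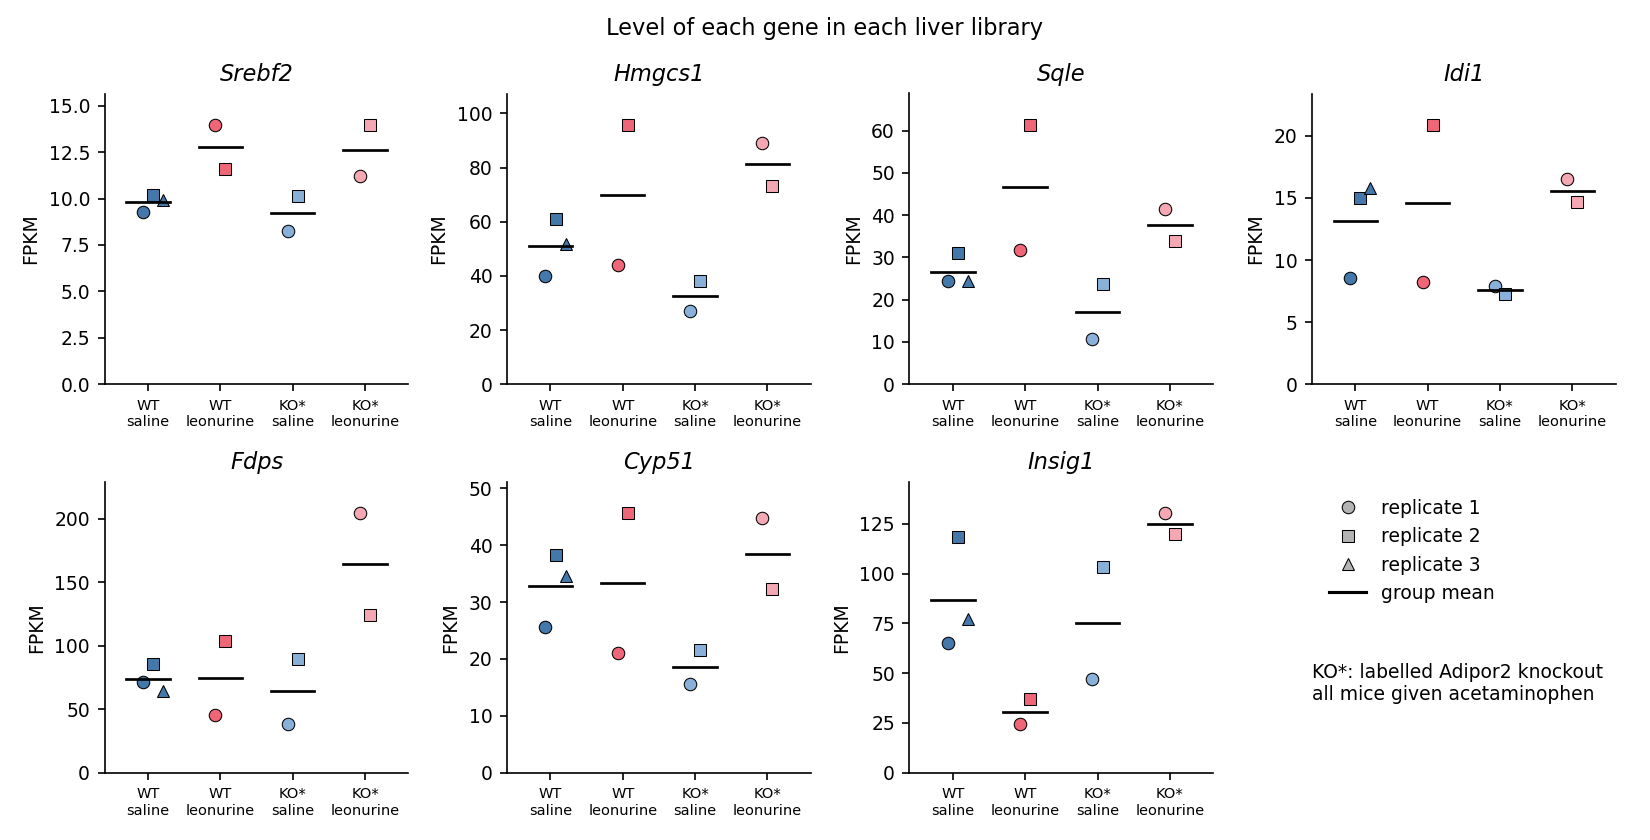
Level of each of the 7 genes (FPKM, linear axis from 0) in every library, by group; points are libraries, their shapes give the replicate, lines are group means and KO* is the labelled knockout. Insig1 was lowest in wild type given leonurine, at 24.3 and 37.1 FPKM, whereas the other 6 genes were lowest on average in the labelled knockout given saline.

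The gap between replicates was widest in wild type given leonurine for Hmgcs1, Idi1 and Cyp51, in the labelled knockout given saline for Fdps, Sqle and Insig1, and in the labelled knockout given leonurine for Srebf2. In wild type given leonurine, 6 of the 7 genes were higher in replicate 2 than in replicate 1, Srebf2 being the exception. In the labelled knockout given saline, 6 of the 7 were lower in replicate 1 than in replicate 2, with Idi1 the exception.

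In wild type, Insig1 was lower with leonurine than with saline and no other member passed the test. Insig1 fell from 86.8 ± 27.8 FPKM (SD, n = 3) to 30.7 ± 9.08 FPKM (SD, n = 2), a ratio of 0.353. On log2(FPKM + 1) the difference was -1.46 ± 0.35 (SE; limma, adjusted p = 0.0425). Of the 10451 genes tested 6.62% were called, 4.72% as lower and 1.9% as higher. Insig1 was also the 1 member at an unadjusted p under 0.05, beside 24.4% of genes tested, and the 1 whose libraries all lay below saline, beside 34.2%. The call was close to the threshold. It ended in 11 of 16 alternatives, at adjusted p between 0.0542 and 0.141, and the sign was negative in all 16. Omitting 1 wild-type saline library gave an adjusted p of 0.0576 (replicate 1), 0.141 (replicate 2) or 0.109 (replicate 3). Omitting 1 wild-type leonurine library gave 0.119 or 0.107, and omitting 1 labelled knockout leonurine library gave 0.0544 or 0.0543.

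The other members gave smaller or less even differences in wild type. Srebf2 differed by 0.35 ± 0.16 (SE; limma, adjusted p = 0.214) and Sqle by 0.72 ± 0.34 (adjusted p = 0.232). Their ranges did not overlap saline, which held for 12.8% of genes tested in the upward direction. For Hmgcs1 the difference was 0.37 ± 0.32 and for Idi1 0.05 ± 0.35. For Fdps it was -0.08 ± 0.42 and for Cyp51 -0.05 ± 0.32. The signs of these 4 rested on single libraries: without leonurine replicate 2 Hmgcs1 was at -0.19 and Idi1 at -0.57, and without replicate 1 Fdps was at 0.50 and Cyp51 at 0.48. The median over the 7 members was 0.05, beside -0.12 over all genes tested. It was 0.50 without leonurine replicate 1 and -0.57 without replicate 2. Neutrophil markers moved alongside, from a summed level between 9.74 and 47.1 FPKM under saline, with Camp at 0, to 63.8 and 151 FPKM under leonurine. Summed hepatocyte markers were between 67791 and 74321 FPKM under saline and 34859 and 58296 FPKM under leonurine. Most of this sum was Alb, whose mean was 57612 FPKM under saline and 36385 FPKM under leonurine. Of the 9 hepatocyte markers 1, Ttr, was called, as lower, and the median was -0.39. Of the 5 neutrophil markers tested 1 was called, as higher. Of 8 sinusoidal endothelial markers 1 was called higher and 1 lower. Of 8 stellate cell markers 1 was higher, as was 1 of 3 cholangiocyte markers. Of 10 Kupffer cell and macrophage markers 0 were called. The part of all these markers in the result was not tested.

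In the labelled knockout all 7 members were higher with leonurine than with saline in both libraries, and 0 passed the test. At an unadjusted p under 0.05 there were 6 of 7, beside 22.4% of all genes tested. Genes called made up 2.1% of those tested, 0.603% as higher and 1.49% as lower. Ranges without overlap were found upward for 8.61% of genes tested and downward for 40.8%. Fdps went from 64.0 ± 36.6 FPKM (SD, n = 2) to 164 ± 56.5 FPKM (SD, n = 2), by 1.43 ± 0.46 on the log2 scale (SE; limma, adjusted p = 0.128). Hmgcs1 went from 32.5 ± 7.81 to 81.2 ± 11.1 FPKM, by 1.31 ± 0.35 (adjusted p = 0.0891). It passed without either wild-type library given leonurine, at adjusted p = 0.0292 and 0.0291. Sqle differed by 1.18 ± 0.37 (adjusted p = 0.125), Cyp51 by 1.01 ± 0.35 (0.145) and Idi1 by 0.95 ± 0.38 (0.193). Insig1 differed by 0.83 ± 0.39 (0.240) and Srebf2 by 0.41 ± 0.17 (0.202). These sizes rested partly on the saline replicates. Without saline replicate 1 the difference was 0.27 for Insig1, 0.64 for Sqle, 0.82 for Fdps and 1.07 for Hmgcs1, and without saline replicate 2 it was 1.39, 1.72, 2.04 and 1.55. The members' median was 1.01, beside -0.19 over all genes tested, and all 7 differences stayed positive in every alternative run. Both libraries given leonurine lacked Y-linked RNA, as above. Summed neutrophil markers were at 6.14 and 14.5 FPKM under saline, with Ly6g at 0, and 26.2 and 63.9 FPKM under leonurine. Of the 5 neutrophil markers tested 1 was called, as higher. Summed hepatocyte markers were at 63693 and 64968 FPKM under saline and 80856 and 83235 FPKM under leonurine. Most of this sum was Alb, at 48994 and 49493 FPKM under saline and 65050 and 67808 FPKM under leonurine. Of the 9 hepatocyte markers 5 were higher and 4 lower, with a median of 0.03, and 0 were called. The part of these markers in the result was not tested.

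The response of Insig1 differed between the genotypes, and that of no other member passed the test. Insig1 responded 2.29 ± 0.52 higher in the labelled knockout on the log2 scale (SE; limma, adjusted p = 0.0458), where 3.74% of genes were called, 1.71% as higher and 2.03% as lower. Insig1, Fdps and Cyp51 were at an unadjusted p under 0.05, beside 20.5% of genes tested. This call ended in 10 of 14 alternatives. It ended without any 1 library other than replicate 2 of the labelled knockout given saline, at adjusted p between 0.0603 and 0.12. Fdps had a difference of 1.51 ± 0.62 (adjusted p = 0.204), Cyp51 of 1.06 ± 0.47 (0.241), Hmgcs1 of 0.94 ± 0.47 (0.302) and Idi1 of 0.90 ± 0.52. For Sqle it was 0.46 ± 0.50 and for Srebf2 0.07 ± 0.23. Both labelled knockout libraries given leonurine lacked Y-linked RNA, as above, so sex and genotype cannot be told apart in these differences.

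**Figure D2:**
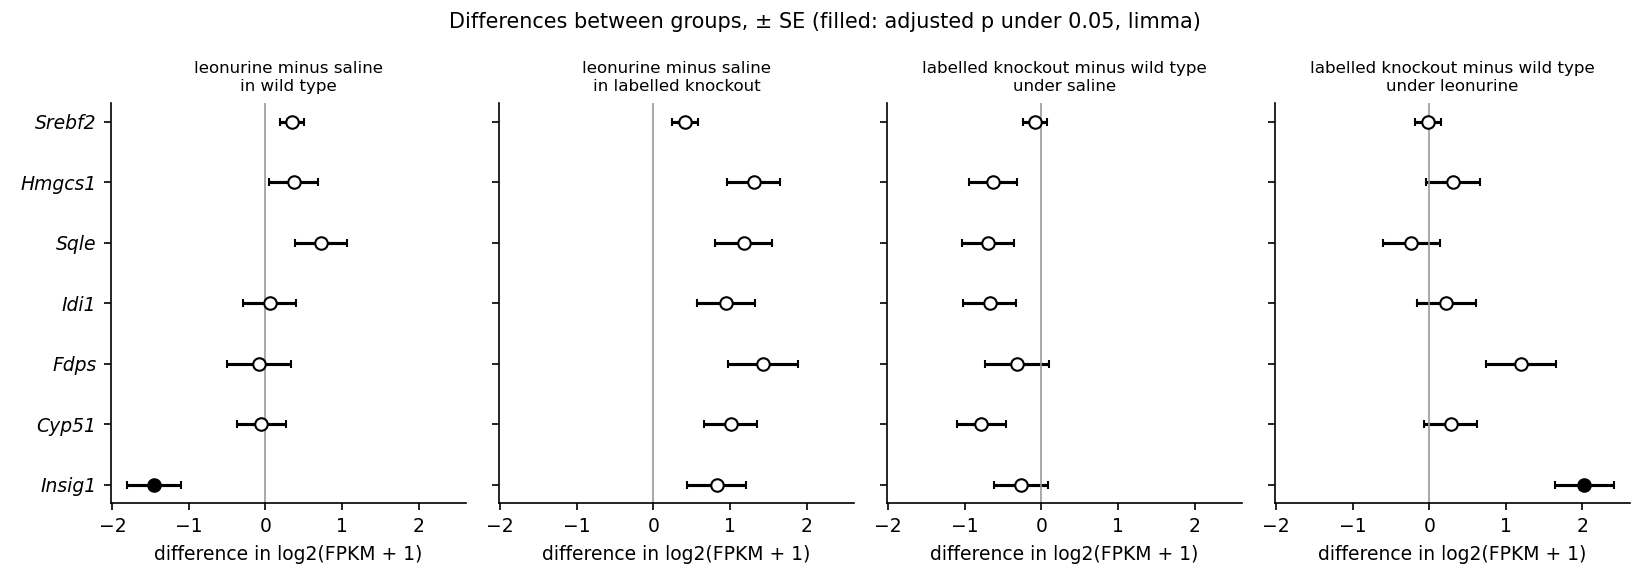
Difference of each of the 7 genes on log2(FPKM + 1) between the groups named above each panel, with bars of 1 SE from limma; filled points passed the test at adjusted p under 0.05. Insig1 passed in wild type (-1.46) and between the genotypes under leonurine (2.02), and all 7 genes lie to the right of 0 for leonurine in the labelled knockout.

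Under saline all 7 members were lower on average in the labelled knockout and 0 passed the test. At an unadjusted p under 0.05 there was 1, Cyp51, beside 13.2% of genes tested. Of all genes 0.0191% were called, 0.00957% as higher and 0.00957% as lower. Cyp51 differed by -0.78 ± 0.32 (SE; limma, adjusted p = 0.347), Sqle by -0.70 ± 0.34 (0.420), Idi1 by -0.67 ± 0.35 and Hmgcs1 by -0.63 ± 0.32. The ranges of these 4 lay below wild type without overlap, as did those of 11.1% of genes tested, and 27.6% lay above. Fdps, Insig1 and Srebf2 overlapped and differed by -0.31 ± 0.42, -0.26 ± 0.35 and -0.09 ± 0.16. Without replicate 1 of the labelled knockout these 3 turned positive, at 0.29, 0.29 and 0.04. The same saline libraries enter the comparison of leonurine with saline in the labelled knockout.

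Under leonurine Insig1 was higher in the labelled knockout, at 125 ± 7.49 FPKM (SD, n = 2) against 30.7 ± 9.08 FPKM (SD, n = 2), a ratio of 4.08. The difference was 2.02 ± 0.39 on the log2 scale (SE; limma, adjusted p = 0.0118), in a comparison where 12.2% of genes were called, 6.99% as higher and 5.25% as lower. It passed in 14 of 15 alternatives, and ended without replicate 1 of the labelled knockout given leonurine (1.96, adjusted p = 0.0758). Fdps did not pass, at 1.20 ± 0.46 (adjusted p = 0.121), though its ranges did not overlap; that held for 25.6% of genes upward and 26.4% downward. Insig1 and Fdps were at an unadjusted p under 0.05, beside 28.2% of genes tested. The other 5 members overlapped and differed by between -0.23 (Sqle) and 0.31 (Hmgcs1). Y-linked RNA differed between these groups as given above, so sex and genotype cannot be told apart here. Summed neutrophil markers were at 26.2 and 63.9 FPKM in the labelled knockout and 63.8 and 151 FPKM in wild type. Of the 5 tested 4 were lower in the labelled knockout and 1 higher, with a median of -1.22, and 0 were called. Of 8 sinusoidal endothelial markers 3 were called higher and 1 lower in the labelled knockout. Of 8 stellate cell markers 1 was lower, as was 1 of 3 cholangiocyte markers, and 1 of 9 hepatocyte markers, Ttr, was higher. The part of these markers in the result was not tested.

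The ratio of Insig1 to Hmgcs1 within a library, a description chosen after the levels were seen, set wild type given leonurine apart. It was 1.62, 1.94 and 1.49 in wild type given saline, and 0.551 and 0.387 in wild type given leonurine. It was 1.75 and 2.71 in the labelled knockout given saline, and 1.46 and 1.63 in the labelled knockout given leonurine. The ratio to Sqle behaved alike, at 0.762 and 0.604 in wild type given leonurine and between 2.65 and 4.41 in the other 7 libraries. This separation was not particular to Insig1. The ratio of Fdps to Sqle was 1.44 and 1.69 in wild type given leonurine and between 2.64 and 4.92 in the other 7. A ratio shows that the genes differed unequally, not which of them did.

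**Figure D3:**
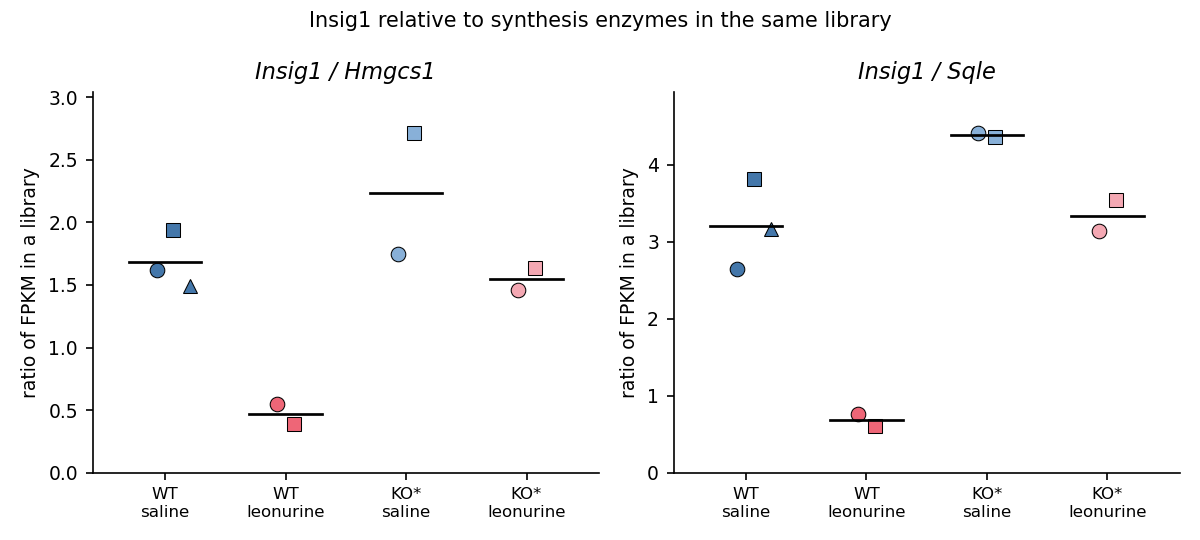
Ratio of Insig1 FPKM to Hmgcs1 FPKM and to Sqle FPKM in each library, by group; each point is 1 library, lines are group means and KO* is the labelled knockout. The wild-type libraries given leonurine, at 0.551 and 0.387 for Hmgcs1, lie below the other 7.

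The rest of the pathway was described with 4 lists. The first held 15 other sterol synthesis enzymes. In wild type given leonurine 1 was lower and 0 were higher than with saline, with a median of -0.11, beside 4.72%, 1.9% and -0.12 over all genes tested. The gene called was Sc5d, lathosterol oxidase, at 37.9 and 34.3 FPKM against 75.9, 86.0 and 91.0 FPKM (-1.20 ± 0.24, SE; adjusted p = 0.0237). This call ended without wild-type saline replicate 2 or 3 or leonurine replicate 2, at adjusted p = 0.0881, 0.0910 and 0.141. In the labelled knockout 1 of the 15 was higher with leonurine and 0 lower, with a median of 0.80, and 11 lay above saline without overlap. Over all genes tested 0.603% were called higher, the median was -0.19 and 8.61% lay above saline without overlap. Tm7sf2, a sterol reductase, rose from 24.9 and 25.05 FPKM to 84.3 and 44.9 FPKM (1.27, adjusted p = 0.0485). Tm7sf2 no longer passed once any wild-type saline library (0.0765, 0.0763 and 0.0935), either labelled knockout saline library (0.185 and 0.113) or replicate 1 given leonurine (0.105) was omitted.

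Between the genotypes under leonurine 3 of the 15 enzymes were higher in the labelled knockout and 0 lower, with a median of 0.58. Over all genes tested 6.99% were higher and 5.25% lower, with a median of 0.01. Sc5d was at 166 and 108 FPKM there (1.86, adjusted p = 0.00354) and passed in all 15 alternatives. Tm7sf2 (1.21, adjusted p = 0.0203) lost its call without replicate 1 of the labelled knockout (0.0940) or without wild-type leonurine replicate 2 (0.0881). Acat2, acetyl-CoA acetyltransferase (1.04, adjusted p = 0.0489), lost it without any 1 of those 2 libraries, the other wild-type leonurine library or any wild-type saline library, at between 0.0761 and 0.243. Under saline 0 of the 15 passed, the smallest p being that of Nsdhl, a sterol dehydrogenase (-0.98, adjusted p = 0.299).

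**Figure D4:**
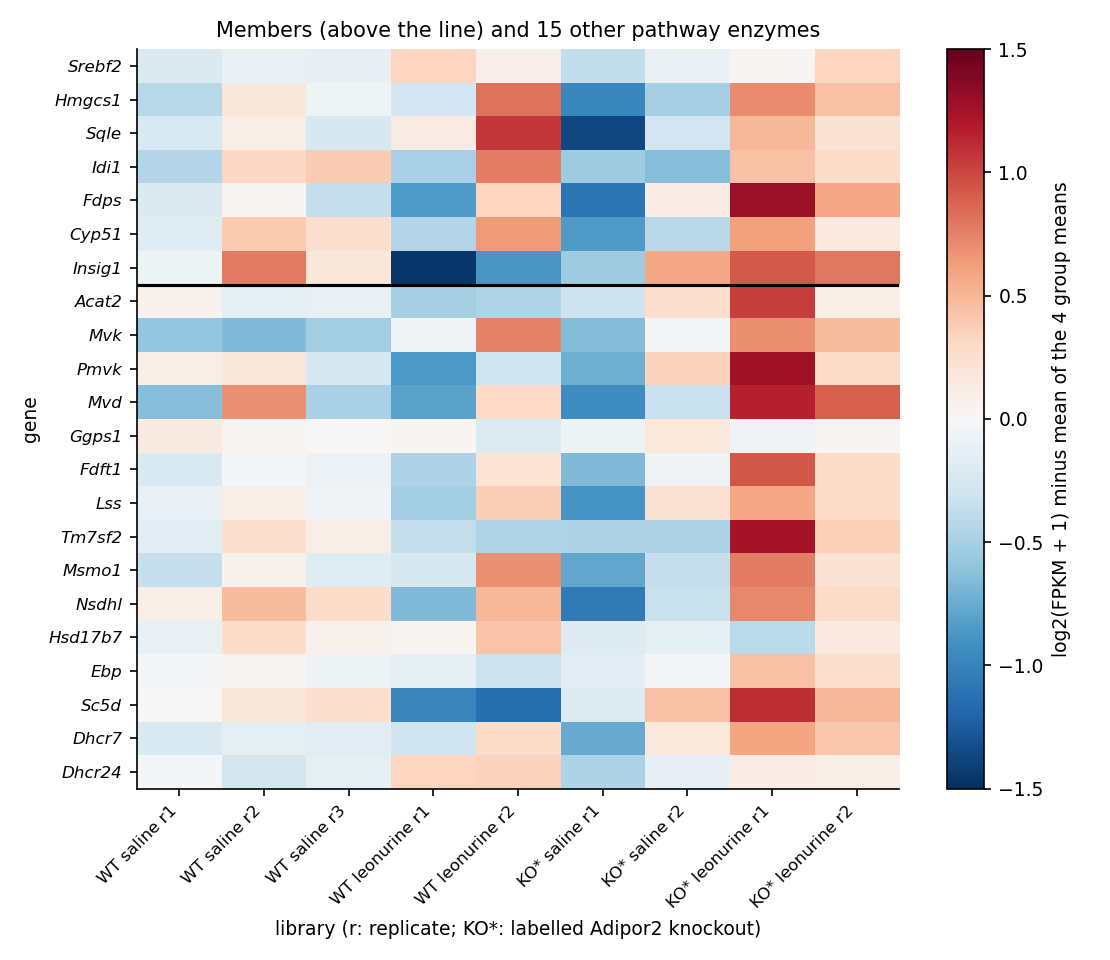
Each of the 7 genes and the 15 other sterol synthesis enzymes in every library, as log2(FPKM + 1) minus the mean over the 4 group means; colour gives the deviation, with the scale ending at 1.5 in either direction. Insig1 deviates downward in both wild-type libraries given leonurine, where Sqle deviates upward.

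The second list held 10 genes that control SREBP processing and the degradation of its partners. With leonurine 0 passed in either genotype; the smallest p in wild type was that of Rnf139, an ubiquitin ligase, at -0.55 (adjusted p = 0.0514), a gene that overlaps Tatdn1 and Gm49356. The smallest in the labelled knockout was that of Mbtps2, a protease that cleaves SREBPs, at -0.55 (adjusted p = 0.0847). Under saline 0 passed, Insig2 being nearest at -0.39 (adjusted p = 0.413). Under leonurine 1 gene was lower in the labelled knockout and 0 were higher, beside 5.25% and 6.99% of all genes tested. This gene, Insig2, the paralog of Insig1, was at 8.14 and 10.6 FPKM against 16.3 and 20.4 FPKM (-0.90, adjusted p = 0.0227), opposite in sign to Insig1. Its call ended with the leonurine groups fitted alone (adjusted p = 0.1045) and with no filter on low values (0.0529). It also ended without wild-type leonurine replicate 2 (-0.74) or labelled knockout leonurine replicate 1 (-0.72).

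The third list held 9 genes outside the synthesis pathway, chosen as targets of SREBPs, of which 8 were tested, Npc1l1 being too low. Whether they depended on SREBP2 was not tested. In wild type 4 of the 8 were lower with leonurine, 0 were higher and the median was -1.06, beside 4.72% called lower, 1.9% called higher and a median of -0.12 over all genes tested. Lpin1, a phosphatidate phosphatase, fell from 119.5, 87.5 and 88.8 FPKM to 34.5 and 17.6 FPKM (-1.94, adjusted p = 0.00792) and passed when any 1 library was omitted. Aacs, acetoacetyl-CoA synthetase, fell from 18.0, 22.3 and 14.8 FPKM to 5.80 and 3.07 FPKM (-1.86, adjusted p = 0.0159). Aacs did not pass when saline replicate 2 (0.0648) or leonurine replicate 2 (0.133) was omitted. Stard4, a sterol transfer protein (-0.93, adjusted p = 0.0208), lost its call without saline replicate 2 or 3 (0.0721 and 0.0753) or leonurine replicate 2 (0.141). Fads1, a fatty acid desaturase (-1.20, adjusted p = 0.0496), lost its call without any 1 wild-type saline library, without leonurine replicate 2 or without either labelled knockout saline library, at between 0.0680 and 0.315. In the labelled knockout 0 of the 8 passed, with a median of 0.70 and Lpin1 at 1.29 (adjusted p = 0.0691). Under leonurine the same 4 genes were higher in the labelled knockout, beside 6.99% of all genes tested: Aacs by 2.21 (adjusted p = 0.00727), Lpin1 by 1.49 (0.0167), Stard4 by 0.87 (0.0224) and Fads1 by 1.40 (0.0272). Each of these 4 calls ended without replicate 1 of the labelled knockout given leonurine, at 0.0553, 0.0611, 0.103 and 0.167. Those of Lpin1 and Stard4 ended without its replicate 2 (0.0654 and 0.0583), and those of Lpin1, Stard4 and Fads1 without wild-type leonurine replicate 2 (0.0750, 0.107 and 0.120). That of Fads1 also ended without wild-type saline replicate 3 (0.0508). Under saline Lpin1 differed by -1.74 and did not pass (adjusted p = 0.0956). It did pass in a fit of the saline groups only (0.0302) and without either wild-type library given leonurine (0.0408 and 0.0409).

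The last list held 17 genes of sterol uptake, esterification and efflux and the LXR receptors and their targets, of which 16 were tested, Cyp46a1 being too low. In wild type 3 were lower with leonurine and 0 higher, with a median of -0.25, beside 4.72%, 1.9% and -0.12 over all genes tested. Abcg5 and Abcg8 encode the partners of the exporter that moves sterols into bile. Abcg8 fell from 26.3, 36.0 and 34.8 FPKM to 6.60 and 3.83 FPKM (-2.45, adjusted p = 0.0010), and Abcg5 from 45.6, 48.0 and 45.3 FPKM to 12.4 and 6.36 FPKM (-2.25, adjusted p = 0.00209). Both passed in all 16 alternatives; the genes overlap over 6710 bases on opposite strands. Srebf1, which encodes SREBP1, fell from 31.8, 41.9 and 31.8 FPKM to 15.2 and 7.68 FPKM (-1.60, adjusted p = 0.0173). Srebf1 did not pass when saline replicate 2 or 3 (0.0692 and 0.0582) or leonurine replicate 2 (0.116) was omitted. In the labelled knockout 0 of the 16 passed, the smallest p being that of Cyp27a1, sterol 27-hydroxylase (0.78, adjusted p = 0.161). Under leonurine 6 of the 16 were higher in the labelled knockout and 1 lower, beside 6.99% and 5.25% of all genes tested. The lower gene, named after its values were seen, was Abca1, a cholesterol exporter of the cell surface (-1.01, adjusted p = 0.0191). Its levels were 18.5 and 28.7 FPKM against 46.2 and 48.9 FPKM, and the call ended without wild-type leonurine replicate 2 (0.0805) or labelled knockout leonurine replicate 1 (0.112). Abcg8 differed by 2.31 (adjusted p = 0.000951), Abcg5 by 2.24 (0.00147) and Srebf1 by 2.35 (0.00324), and each passed in all 15 alternatives. Cyp7a1, the rate-limiting enzyme of bile acid synthesis, was at 92.3 and 28.9 FPKM against 5.31 and 0.473 FPKM (4.11, adjusted p = 0.00723), and its call ended without replicate 1 of the labelled knockout (0.0567). Under saline 0 of the 16 passed, the smallest p being that of Mylip, a ubiquitin ligase (-0.40, adjusted p = 0.347).

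Across the 9 libraries, the 8 genes whose profile lay nearest the mean profile of the 7 members were Lss, Fdft1, Msmo1, Aspg, Dhcr7, Nsdhl, Lenep and Slc12a9. Their root mean square difference from that profile ran from 0.164 for Lss to 0.269 for Slc12a9, in log2 units. Of these 8 genes, 5 were on the list of 15 enzymes, out of 10451 genes tested. Among the members, which helped to make the profile, Cyp51 lay nearest at 0.171, followed by Hmgcs1 at 0.201. Insig1 lay farthest at 0.658, at rank 8396 of all genes tested in order of distance, so most genes lay nearer than this member. Srebf2 was at rank 335. The closest pair of members was Idi1 and Cyp51, at 0.184, and the most distant was Sqle and Insig1, at 0.991.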

How the data were processed

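Liver RNA from 9 libraries in 4 groups, assigned by their titles, had been extracted with TRIzol and made into libraries with a VAHTS Universal V6 kit, per the labels' protocols. The authors deposited FPKM values for 16857 genes. Tools listed in the submitters' processing notes are fastp, HISAT2, HTSeq and R 3.2.0, with build mm10; the sources used here do not give their roles, the annotation or how strand was handled. FPKM is relative to the library total, so very abundant transcripts lower other values: the 10 most abundant genes took between 20.5% and 30.0% of a library. Whole fragments were recovered from ratios of the FPKM values for 16857 of 16857 genes at a tolerance of 0.0001. They served only to give depth, and the count test was not run on them because the unit is FPKM.

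Genes with FPKM of at least 1 in at least 2 libraries (10451) were tested with limma 3.58.1 in R 4.3.3 on log2(FPKM + 1), which understates changes of low genes. All 9 libraries were fitted with 1 mean per group, a variance trend and 5 residual degrees of freedom. P-values were adjusted by Benjamini-Hochberg over all genes tested in a comparison, and genes were called below 0.05. There were 5 comparisons: leonurine against saline in each genotype, the difference between these responses, and the genotypes under each injection. Data were simulated for 10256 genes and only for leonurine against saline in wild type, with changes placed only in more highly expressed genes. There the fit recovered 73% of genes changed by 1 on the log2 scale and 99% of those changed by 2. The other comparisons were not simulated.

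The members and lists were chosen with earlier results of these data known. Named genes are the 7 members, Adipor2, up to 4 called genes with the smallest p per list and comparison (the 1 with the smallest p where none was called) and the 8 nearest profiles. A few genes of the lists are not reported here and were left out of the list counts. The alternatives were a pseudocount of 0.1, no filter, a mean FPKM of at least 5, median-ratio scaling, the groups compared alone, the replicate block, omission of both labelled knockout leonurine libraries, and omission of each library.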

Additional observations from a re-analysis of the deposited data

Results flagged for a closer look

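For 9 of the 56 members and list genes tested (16.1%) the response to leonurine differed between the genotypes by a test of the difference itself (limma, adjusted p under 0.05), beside 3.74% of all genes tested, 1.71% as higher and 2.03% as lower. The members and lists were chosen with earlier results of these data known, so this share does not test the pathway. Values are differences on log2(FPKM + 1), labelled knockout minus wild type. The response of Insig1 differed by 2.29, from -1.46 in wild type to 0.83 in the labelled knockout. Among the synthesis enzymes it differed by 1.89 for Sc5d (-1.20 and 0.69) and by 1.74 for Tm7sf2 (-0.47 and 1.27). Among the genes chosen as other SREBP targets it differed by 3.23 for Lpin1 (-1.94 and 1.29), by 3.25 for Aacs (-1.86 and 1.39) and by 1.44 for Stard4 (-0.93 and 0.51). It differed by 2.67 for Abcg8 (-2.45 and 0.23), by 2.56 for Abcg5 (-2.25 and 0.31) and by 2.39 for Srebf1 (-1.60 and 0.80). Lpin1, Abcg8 and Abcg5 passed in all 14 alternatives. With no filter on low values the calls of the other 6 ended, at adjusted p between 0.0573 and 0.1275. They also ended without replicate 1 of the labelled knockout given saline. Further omissions of a library, and the replicate block, ended those of all but Aacs. Sex cannot be told apart from leonurine in the labelled knockout, nor from genotype under leonurine, as given above.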

How the results depend on the processing

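Of 532 member values under alternatives, 485 kept their direction and side of the threshold. Of the rest, 22 lost a call, 2 gained one and 23 turned sign. All lost calls were of Insig1, the only member called in the main fit, so most values that kept their side were never called. Insig1 kept its call in 5 of 16 alternatives in wild type, 4 of 14 for the difference and 14 of 15 between genotypes under leonurine. Median-ratio scaling moved the median of all genes from -0.12 to 0.002 in wild type and from -0.19 to -0.02 in the labelled knockout. It turned Fdps to 0.069 and Cyp51 to 0.10 in wild type. The share of calls that were higher went from 28.8% to 45.1% in wild type, from 28.8% to 56.0% in the labelled knockout and from 45.8% to 61.3% for the difference between responses.

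Called genes in wild type numbered 692, but 202 with no filter and 75 with the replicate block, and from 134 to 1327 with a library omitted. Called members went from 1 to 0 with no filter, median-ratio scaling, the block and both labelled knockout leonurine libraries omitted, and ran from 0 to 1 with 1 omitted. In the labelled knockout 219 became 136 with a mean FPKM of at least 5, 112 with the groups compared alone and 124 with the block, and from 91 to 322 with a library omitted (members 0 to 1). For the difference, 391 became 133 with no filter, 600 with median-ratio scaling and 102 with the block, and from 110 to 812 with a library omitted; called members went from 1 to 0 with no filter and the block, and ran from 0 to 1 with a library omitted. Under saline 2 became 1 with a pseudocount of 0.1, 1 with a mean FPKM of at least 5, 4 with median-ratio scaling, 81 with the saline groups alone, 0 with the block and 1 with both labelled knockout leonurine libraries omitted, and from 0 to 17 with a library omitted. Under leonurine 1280 became 309 with the leonurine groups alone, and from 310 to 1531 with a library omitted (members 0 to 1). The cause of these moves was not tested.

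Signs turned with a library omitted in these ranges. In wild type Hmgcs1 ran from -0.19 to 0.92, Idi1 from -0.57 to 0.68, Fdps from -0.67 to 0.50 and Cyp51 from -0.59 to 0.48. For the difference Srebf2 ran from -0.080 to 0.22 and Sqle from -0.075 to 1.001. Under saline Srebf2 ran from -0.22 to 0.043, Fdps from -0.92 to 0.29 and Insig1 from -0.82 to 0.29. Under leonurine Srebf2 ran from -0.17 to 0.13, Hmgcs1 from -0.24 to 0.86, Sqle from -0.70 to 0.23, Idi1 from -0.40 to 0.85, Cyp51 from -0.26 to 0.82 and Adipor2 from -0.13 to 0.030. Where 1 library of a group was left, it was assumed to vary like the other groups.

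Whether the replicate numbers of the labels pair the samples was not settled. Of 12 same-numbered pairs 3 correlated above 0.1 in deviations from the group means, and all values lay between 0.020 and 0.154. In a group of 2 libraries the deviations mirror each other, so some of these values repeat and the check cannot decide. With the replicate block Insig1 did not pass in wild type (adjusted p = 0.0650) or in the difference (0.0585). In wild type the block also ended the calls of Lpin1 (0.0564), Aacs (0.0674), Srebf1 (0.0790), Stard4 (0.0840), Sc5d (0.104) and Fads1 (0.129). It ended that of Tm7sf2 in the labelled knockout (0.101). For the difference it ended those of Srebf1 and Stard4 (both 0.0780), Sc5d (0.0824) and Tm7sf2 (0.0964), and under leonurine those of Stard4 (0.0532) and Acat2 (0.0957). Under leonurine, fitting the leonurine groups alone ended the calls of Tm7sf2, Acat2, Insig2, Lpin1, Stard4, Fads1 and Abca1 (limma, adjusted p between 0.081 and 0.159). Those of Insig1, Sc5d, Aacs, Abcg8, Abcg5, Srebf1 and Cyp7a1 held. No filter ended those of Tm7sf2, Acat2, Insig2, Lpin1 and Fads1. In wild type no filter ended those of Insig1, Sc5d, Aacs, Stard4, Fads1 and Srebf1. The fit with the compared groups alone was not run for the difference, which uses all 4 groups.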
